A study of Mus musculus with 27 samples.

Results

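A set of 10 genes of the germ line and of meiosis, Mael, Ddx4, Tex19.1, Dazl, Sycp3, Meioc, Khdc3, Rhox5, Rhox6 and Rhox9, was followed across 3 mouse pluripotent cell lines during differentiation. Members were taken by name: a probe set was kept when the annotation gave it a single symbol and that symbol was one of the 10. This gave 11 of the 45101 probe sets and 10 of the 18193 genes measured. Dazl had 2 probe sets and each of the other genes 1. The genes had been chosen by their measured changes with day and line on these same arrays, so every change and difference of theirs is a description. Counts of members called by the fit are part of that description, and no p-value is given for them.

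The R1 line consists of embryonic stem cells. The H9 line is an induced pluripotent stem (iPS) cell line reprogrammed with 3 transcription factors, and 19BL an iPS line reprogrammed with 4, so that each type of reprogramming is represented by a single line and line and factor number cannot be told apart. All undifferentiated cells (day 0) had been kept on mitomycin-inactivated feeder cells with leukemia inhibitory factor (LIF). Embryoid bodies, aggregates that differentiate spontaneously, were formed in serum medium without LIF and sampled at day 5 and day 11. There were 9 groups of 3 arrays, labelled as biological replicates, 27 in all. A level below is the log2 signal of 1 probe set on 1 array, and a difference is a difference of group means on that log2 scale with the standard error (SE) of the fit. Levels of different genes are not compared, since each probe set has its own response.

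Germ cells transcribe a set of genes that somatic cells keep silent, largely through DNA methylation and repressor complexes at their promoters. Among them are genes of the piRNA pathway, in which small RNAs bound to PIWI proteins silence transposons, genes that build the paired chromosomes of meiosis, and the X-linked Rhox homeobox genes. Mouse embryonic stem cells express part of this set, and their differentiated descendants normally turn it down. A gene is called here when its adjusted p in limma was under 0.05 and its difference at least 2-fold.

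The labels were checked against markers. The mean log2 level of 14 pluripotency genes was 12.13 in R1, 12.10 in H9 and 12.63 in 19BL at day 0, and 7.68, 7.24 and 9.73 at day 11, with 19BL the highest of the 3 at day 11. Feeder-type fibroblast genes stood at a mean of 9.29, 10.78 and 9.83 at day 0, 6.53 to 7.29 at day 5 and 9.79 to 11.54 at day 11, and the cells that held them were not tested. An RNA quality index, the signal at the 3′ end minus that at the 5′ end of Actb and Gapdh on the control probe sets, is larger for shortened RNA or copies. It was 2.69 ± 0.23 (SD, n = 3) in 19BL at day 11, the highest of the groups, against 1.09 ± 0.07 to 1.94 ± 0.20 in the others. In 19BL at day 5, replicate 3 stood apart from its group for several members. These are bulk samples, so fewer cells of a type and less RNA per cell cannot be told apart.

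Promoters are shown first to describe the CpG content of the members, a feature the choice of genes did not use. Whether it goes with the course of a member was not tested. The windows are the 250 bases before the RefSeq start on GRCm38.p6, printed 5′ to 3′ on the gene's strand with every CpG in capitals. Windows were found for 8 of the 10 genes. For Mael (chr1:166238745-166238994, minus strand), Dazl (chr17:50293621-50293870, minus), Sycp3 (chr10:88459337-88459586, plus), Tex19.1 (chr11:121145893-121146142, plus) and Rhox5 (chrX:37754358-37754607, plus) the start coincides with the 5′ end of the annotated gene, and these 5 are printed.
Mael: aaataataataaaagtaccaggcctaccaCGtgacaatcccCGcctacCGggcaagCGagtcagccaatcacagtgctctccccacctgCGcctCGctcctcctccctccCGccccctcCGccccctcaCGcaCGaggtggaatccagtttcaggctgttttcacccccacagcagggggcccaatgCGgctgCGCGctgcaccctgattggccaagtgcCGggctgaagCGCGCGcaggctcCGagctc
Dazl: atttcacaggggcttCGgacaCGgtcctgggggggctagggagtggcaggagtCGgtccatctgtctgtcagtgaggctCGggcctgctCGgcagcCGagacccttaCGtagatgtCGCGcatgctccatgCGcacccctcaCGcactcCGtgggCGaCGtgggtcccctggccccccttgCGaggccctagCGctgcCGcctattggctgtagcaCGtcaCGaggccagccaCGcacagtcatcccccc
Sycp3: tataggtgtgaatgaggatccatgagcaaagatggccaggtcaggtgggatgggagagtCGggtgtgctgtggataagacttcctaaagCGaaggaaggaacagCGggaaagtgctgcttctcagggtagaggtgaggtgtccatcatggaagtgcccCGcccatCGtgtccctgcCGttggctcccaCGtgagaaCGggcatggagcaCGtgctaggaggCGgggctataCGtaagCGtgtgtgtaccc
Tex19.1: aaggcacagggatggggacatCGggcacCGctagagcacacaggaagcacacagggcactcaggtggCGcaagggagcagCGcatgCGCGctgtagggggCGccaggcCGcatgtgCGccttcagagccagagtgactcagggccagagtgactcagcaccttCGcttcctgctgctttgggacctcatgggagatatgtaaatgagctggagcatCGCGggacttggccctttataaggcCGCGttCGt
Rhox5: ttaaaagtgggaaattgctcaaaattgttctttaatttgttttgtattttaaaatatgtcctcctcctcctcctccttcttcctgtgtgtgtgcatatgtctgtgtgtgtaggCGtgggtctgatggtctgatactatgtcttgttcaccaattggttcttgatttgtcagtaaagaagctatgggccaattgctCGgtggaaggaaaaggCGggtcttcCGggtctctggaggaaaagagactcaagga

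The windows held 18 CpGs in Mael, 31 in Ddx4, 20 in Dazl, 12 in Sycp3, 15 in Tex19.1 and 22 in Meioc. Khdc3 had 0 and Rhox5 had 4. Over 32851 RefSeq windows of the same length the median was 6 CpGs, with quartiles of 2 and 16. For Ddx4, Meioc and Khdc3 the start used lies 323, 234 and 1017 bases inside the annotated gene, so their counts refer to one start among several possible. The letters GCGGGA or their reverse complement TCCCGC, the core of the E2F consensus, occurred in Mael, Ddx4, Sycp3, Tex19.1 and Meioc, and in 16.9% of all windows. The E-box CACGTG occurred at 1 place each in Mael and Ddx4 and at 2 places in Sycp3, and in 6.02% of all windows. The E-box reads the same on both strands, and the motifs did not overlap in these windows. A match of letters is a description and not a binding site, and methylation was not measured in these samples.

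**Figure D1:**
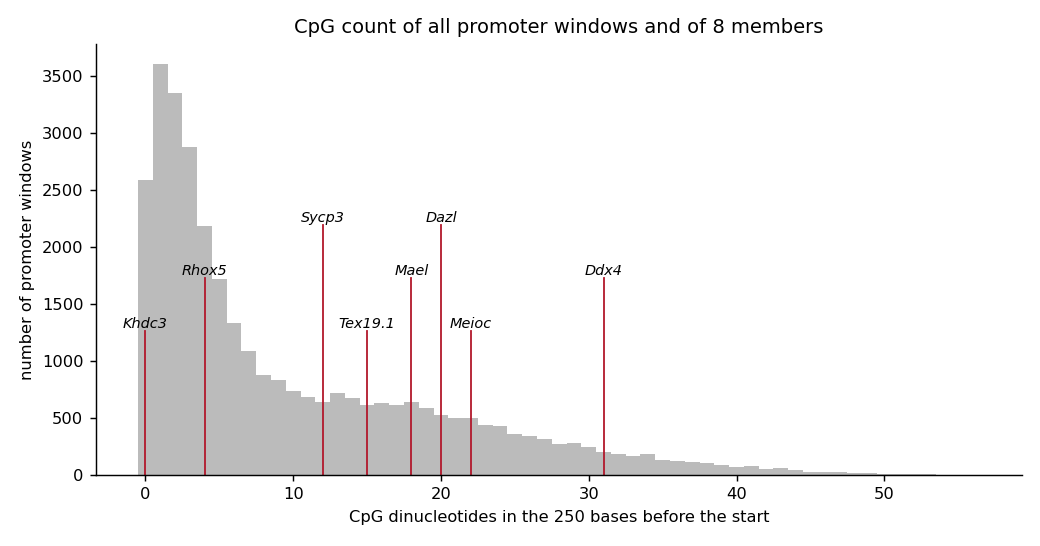
Number of CpGs in the 250 bases before the RefSeq start (horizontal axis) against the number of RefSeq windows with that count (vertical axis), with 8 of the 10 genes marked. Ddx4 at 31, Meioc at 22, Dazl at 20 and Mael at 18 lie above the upper quartile of 16. Sycp3 at 12 and Tex19.1 at 15 lie between that quartile and the median of 6, and Khdc3 at 0 and Rhox5 at 4 lie below the median.

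Mael and Ddx4 serve the piRNA pathway: Mael encodes maelstrom, needed to silence transposons in the male germ line, and Ddx4 the mouse Vasa RNA helicase of germ cells. Mael (chr1:166201385-166238744) read 8.03, 9.16 and 8.69 in the R1 arrays at day 0, 5.51, 5.36 and 4.28 at day 5 and 4.14, 4.41 and 3.88 at day 11. In H9 it read 7.52, 8.22 and 7.73 at day 0, 3.86, 3.85 and 3.69 at day 5 and 3.60, 4.10 and 3.80 at day 11. In 19BL the values were 8.56, 8.90 and 9.10, then 9.66, 9.30 and 8.32, then 8.16, 8.54 and 7.93. R1 and H9 thus left their day 0 range by day 5 with no overlap, while the 19BL arrays of day 5 overlapped those of day 0 and the day 11 arrays lay just below them. The difference from day 0 to day 11 was -4.48 ± 0.33 in R1 (22.4-fold lower), -3.99 in H9 (15.9-fold lower) and -0.64 in 19BL (1.56-fold lower). With the RNA quality index as a covariate, the 19BL difference was -2.48 and was called. At day 11 Mael was 16.7-fold higher in 19BL than in R1 and 20.8-fold higher than in H9. Ranked by mean, 19BL at day 5, 19BL at day 0, R1 at day 0, 19BL at day 11 and H9 at day 0 formed a chain in which each neighbour overlapped the next, and a gap separated them from the R1 and H9 embryoid bodies.

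Ddx4 (chr13:112598333-112652633) read 8.70, 9.39 and 9.32 in R1 at day 0, 6.58, 5.77 and 5.09 at day 5 and 4.78, 4.63 and 4.22 at day 11. H9 gave 8.35, 8.93 and 8.78, then 5.08, 4.35 and 4.67, then 3.55, 4.24 and 3.82. The 19BL arrays gave 8.89, 9.08 and 9.34, then 8.72, 8.66 and 8.43, then 7.43, 7.38 and 7.63. All 3 lines ended lower than they began, with no overlap, but 19BL at day 11 still lay above every embryoid body array of R1 and H9. The change to day 11 was -4.59 ± 0.28 in R1 and -4.82 in H9, against -1.62 in 19BL. In fold terms that was 24.1, 28.2 and 3.08. At day 0 the 3 lines overlapped.

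Tex19.1 encodes a germ cell and placental protein that restrains retrotransposons and is also made in embryonic stem cells. Tex19.1 (chr11:121146143-121148314) read 11.19, 11.10 and 10.42 in R1 at day 0, 7.81, 7.96 and 6.87 at day 5 and 7.48, 6.94 and 6.62 at day 11. H9 showed 10.06, 10.41 and 9.88, then 6.67, 6.19 and 5.94, then 5.32, 5.70 and 5.54. In 19BL it went from 10.16, 10.42 and 9.93 to 9.12, 9.07 and 8.69 and to 8.25, 8.55 and 8.22. Each step in 19BL was free of overlap, and its day 11 arrays lay above all R1 and H9 embryoid bodies. The change to day 11 was -3.89 ± 0.27 in R1 (14.8-fold), -4.60 in H9 (24.2-fold) and -1.83 in 19BL (3.56-fold). Unlike Mael, it was already lower at day 5 in 19BL, at a difference of -1.21.

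Dazl encodes an RNA-binding protein that licenses germ cells for sexual development, and its 2 probe sets disagreed in size. The brighter one, 1449502_at, which stands for Dazl in the fit, spanned 4.94 to 6.17 over all 27 arrays. On it the day 11 differences were -0.62 ± 0.16 in R1, -0.54 in H9 and -0.06 in 19BL, all under 2-fold. On the other, 1419542_at, R1 read 6.76, 6.73 and 6.77 at day 0, 4.41, 4.66 and 4.78 at day 5 and 5.39, 4.99 and 4.67 at day 11. H9 read 6.17, 6.21 and 6.12, then 4.10, 4.49 and 4.31, then 4.38, 4.16 and 4.16. The 19BL arrays read 6.25, 6.32 and 6.15, then 6.02, 5.69 and 5.41, then 5.38, 5.76 and 5.22. By this probe set all embryoid bodies lay below their own day 0 arrays, with 19BL reduced the least. Its day 11 differences were -1.74 in R1, -1.93 in H9 and -0.79 in 19BL (SE 0.17). With the mean of both probe sets, Dazl passed 2-fold in R1 and H9, at -1.18 and -1.24 at day 11. Dazl lies at chr17:50279393-50293620.

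Sycp3 and Meioc act in meiosis. Sycp3 encodes a structural protein of the axial elements on which homologous chromosomes pair, and Meioc a protein that keeps germ cells in meiotic prophase. Sycp3 (chr10:88459587-88473236) read 9.61, 10.89 and 10.62 in R1 at day 0, 7.93, 7.87 and 6.57 at day 5 and 5.64, 4.70 and 4.40 at day 11. H9 read 8.26, 8.96 and 8.62, then 5.39, 4.55 and 5.03, then 3.56, 3.93 and 3.71. In 19BL the arrays were at 8.45, 9.17 and 9.73, then 9.16, 8.71 and 8.07, then 7.75, 7.80 and 6.64. R1 and H9 stepped down at both days without overlap, and the 19BL arrays of days 0 and 5 overlapped. Sycp3 had the widest decline of the set in R1, with a day 11 difference of -5.46 ± 0.43 (43.9-fold lower), against -4.88 in H9 (29.4-fold) and -1.72 in 19BL (3.29-fold).

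Meioc (chr11:102665351-102682240) took a different course in each line. R1 read 6.22, 6.96 and 6.71 at day 0, 5.63, 5.74 and 4.99 at day 5 and 6.36, 6.16 and 7.35 at day 11. H9 read 5.56, 5.98 and 6.07, then 4.08, 3.92 and 4.36, then 3.57, 4.40 and 4.57. The 19BL arrays read 6.73, 6.89 and 7.61, then 8.54, 8.56 and 7.15, then 9.40, 9.07 and 9.69. R1 dipped and came back to its day 0 range, H9 stayed down, and 19BL climbed above every other array of the study by day 11. The day 11 difference was -0.01 ± 0.36 in R1, -1.68 in H9 and 2.31 in 19BL, which was 4.96-fold higher. With the RNA quality covariate the 19BL difference was 1.86 with a wider SE of 0.81 and was not called. Against H9 at day 11, Meioc in 19BL was 36.8-fold higher, and against R1 6.79-fold. The smaller difference of 1.01 in 19BL at day 5 passed the threshold barely and did not pass it without 19BL day 0 replicate 1 or 2 or day 5 replicate 1 or 2 (0.77 to 0.91).

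Khdc3, also known as Filia, encodes a maternal protein of oocytes and early embryos that protects chromosome stability. Khdc3 (chr9:73101381-73106631) read 9.53, 9.68 and 9.01 in R1 at day 0 and 5.70 to 6.03 in all R1 embryoid bodies. In H9 it was low from the start, at 6.36, 6.86 and 6.39 at day 0 and 5.50 to 6.62 afterwards. In 19BL it read 9.62, 10.12 and 9.45 at day 0, 8.38, 8.60 and 6.30 at day 5 and 5.89, 6.18 and 5.91 at day 11. Khdc3 in 19BL was thus still high in 2 of 3 arrays at day 5 but reached the same low level as the other lines by day 11, where the R1, H9 and 19BL ranges were within 5.50 to 6.62. Its day 11 difference was -3.74 ± 0.38 in 19BL (13.3-fold lower), -3.59 in R1 (12.1-fold) and -0.52 in H9. The low 19BL array of day 5 was replicate 3, and with only the day 5 arrays of R1 and 19BL in the fit the higher level of 19BL (1.87) was not called.

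The Rhox genes encode homeobox proteins of reproductive and extraembryonic tissue, and those in the set are neighbours on the X chromosome. Rhox5 (chrX:37754608-37808878) read 13.77, 13.94 and 13.74 in R1 at day 0, 10.79, 10.26 and 10.12 at day 5 and 11.90, 11.87 and 12.32 at day 11. H9 read 11.01, 10.96 and 10.49, then 8.29, 7.82 and 7.79, then 10.73, 11.40 and 11.10. The 19BL arrays read 11.14, 11.34 and 11.19, then 10.55, 10.40 and 9.84, then 11.94, 11.82 and 12.22. All 3 lines were lowest at day 5 and higher again at day 11, without overlap between those days. R1 at day 0 was above every other array. From day 5 to day 11 Rhox5 differed by 1.64 ± 0.21 in R1, 3.11 in H9 and 1.73 in 19BL.

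Rhox6 (chrX:37827055-37829857) read 8.93, 9.72 and 9.28 in R1 at day 0, 6.23, 6.28 and 5.68 at day 5 and 10.01, 9.29 and 10.41 at day 11. H9 read 6.50, 6.67 and 6.47, then 6.07, 6.35 and 6.09, then 7.63, 8.42 and 6.45. The 19BL arrays read 6.58, 6.73 and 6.97, then 6.21, 6.46 and 6.23, then 11.42, 10.46 and 10.35. R1 was high at both ends and low at day 5, whereas 19BL was low until day 5 and then higher than R1 had been at day 0. Replicate 3 of H9 at day 11 lay just below the H9 day 0 arrays. From day 5 to day 11 Rhox6 differed by 3.84 ± 0.36 in R1, 4.44 in 19BL and 1.33 in H9, and the H9 difference was 0.87 without day 11 replicate 2.

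Rhox9 (chrX:37899097-37901770) traced Rhox6 closely. It read 8.50, 9.14 and 8.95 in R1 at day 0, 6.80, 6.51 and 6.47 at day 5 and 8.93, 9.08 and 9.49 at day 11. H9 read 6.45, 6.59 and 6.52, then 6.07, 6.51 and 6.02, then 7.86, 8.15 and 6.39. The 19BL arrays read 6.61, 6.65 and 6.76, then 6.54, 6.83 and 6.73, then 9.91, 9.16 and 9.16. R1 at day 0 and day 11 and 19BL at day 11 were high, with R1 at day 11 overlapping each of the other two, and the remaining groups other than H9 at day 11 stayed between 6.02 and 6.83. From day 5 to day 11 Rhox9 differed by 2.57 ± 0.30 in R1, 2.71 in 19BL and 1.27 in H9 (0.92 without H9 day 11 replicate 2). The 2 genes have similar sequences, and cross-hybridization between their probe sets was not tested.

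**Figure D2:**
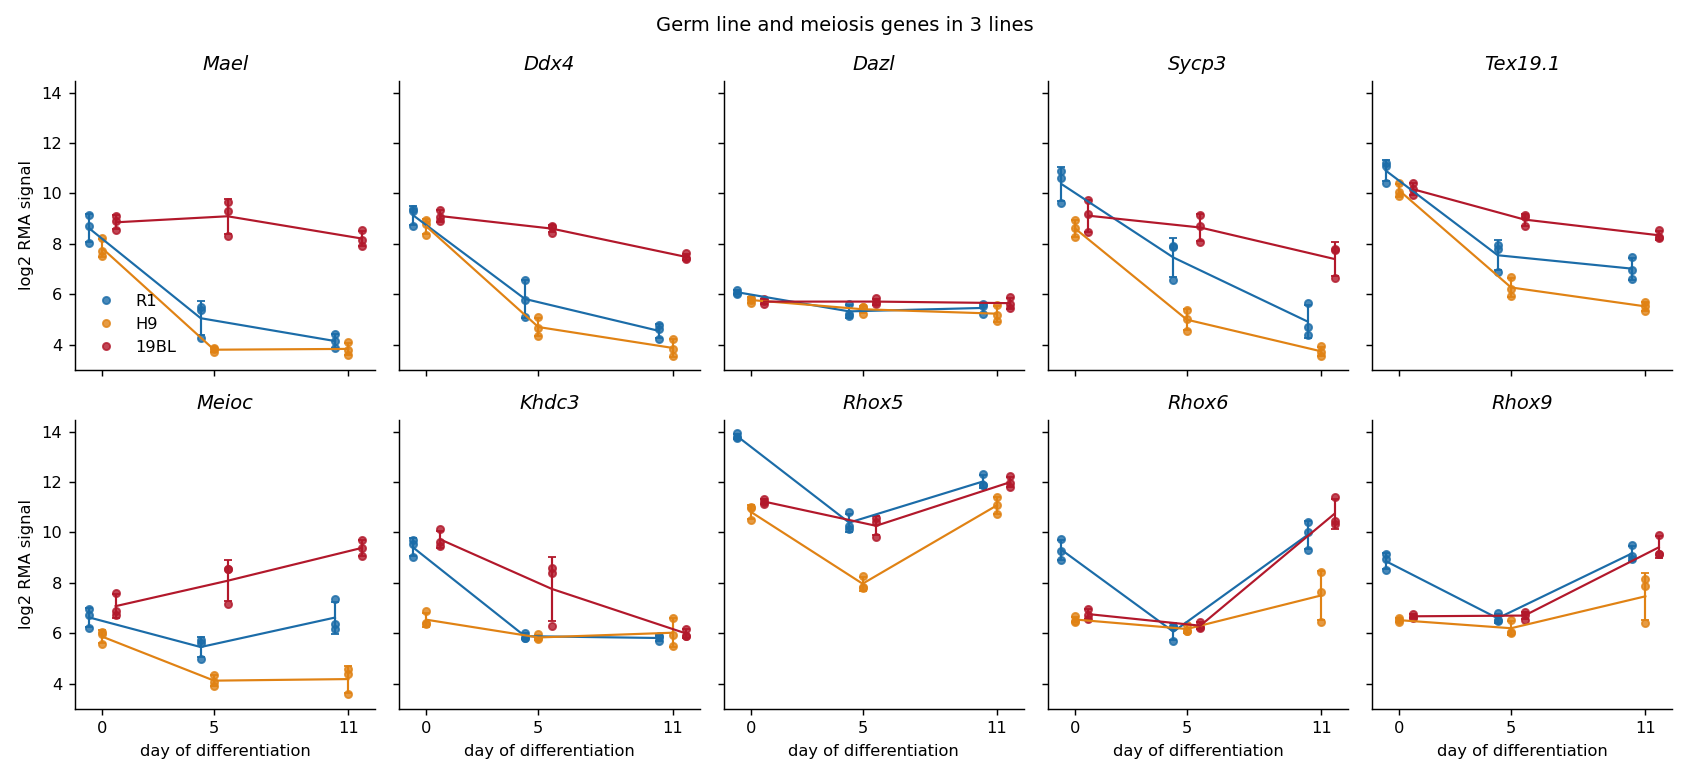
Log2 signal of each of the 10 genes (vertical axis) against the day of differentiation (horizontal axis) in R1, H9 and 19BL. Points are arrays, lines join the means of 3 arrays and bars are SD. Mael, Ddx4, Sycp3 and Tex19.1 dropped steeply in R1 and H9 and stayed higher in 19BL, Meioc climbed in 19BL, Khdc3 reached 5.99 in 19BL at day 11, and the Rhox genes were lowest at day 5 or low until then.

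Counted by day, 9 of the 10 genes were called lower in R1 at day 5 than at day 0, where 8.10% of all genes tested were called lower. In H9 6 were called lower (7.40% of all genes), and in 19BL 2, Tex19.1 and Khdc3, were lower (4.82%) and 1, Meioc, higher (2.25%). By day 11, 6 were called lower than at day 0 in R1 (12.2% of all genes), 5 in H9 (16.0%) and 4 in 19BL (14.1%), and 3 (Meioc, Rhox6 and Rhox9) were called higher in 19BL (6.72%). With the RNA quality covariate, Meioc and Rhox9 (1.60) were no longer called there and Mael was called lower. From day 5 to day 11, 4 in R1 (7.10%), 3 in H9 (6.16%) and 4 in 19BL (6.66%) were called higher, and 2 in R1 (4.53%), 1 in H9 (10.8%) and 3 in 19BL (9.16%) lower. With the replicate number as a block and only those arrays, Meioc was not called in 19BL from day 5 to day 11 (1.30). These shares describe the choice of genes and carry no weight of their own. The median difference of the 10 from day 0 to day 11 was -2.69 in R1, -1.11 in H9 and -0.35 in 19BL, beside -0.04, 0.01 and -0.11 over all genes.

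The members differed in how 19BL stood against R1 and H9. At day 0, 19BL was called lower than R1 for Rhox5, Rhox6 and Rhox9 (0.478% of all genes were called lower) and higher than H9 for Khdc3 alone (0.885% called higher). With the replicate number as a block and only those arrays, Sycp3 (-1.25) was also called lower than in R1. At day 5, 5 members were called higher in 19BL than in R1 (2.31% of all genes) and 7 higher than in H9 (2.91%). At day 11 the counts were 5 against R1 (2.39%) and 7 against H9 (5.12%). Mael, Ddx4, Tex19.1 and Meioc were in all 4 of these counts from day 5 on, and Sycp3 in all but R1 at day 5, where its difference was 1.19 ± 0.43. Khdc3 did not differ by 2-fold between 19BL and either line at day 11, and Rhox5 did not differ by 2-fold there either (-0.03 against R1 and 0.92 against H9). Rhox6 and Rhox9 were higher in 19BL than in H9 at day 11, by 3.24 and 1.94, but within 0.84 and 0.24 of R1. The change from day 0 to day 11 was called apart from that of R1 for 8 members, all with the higher value in 19BL (2.47% of all genes), and from that of H9 for 7 with the higher value (3.41%) and for Khdc3 with the lower (3.01%).

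**Figure D3:**
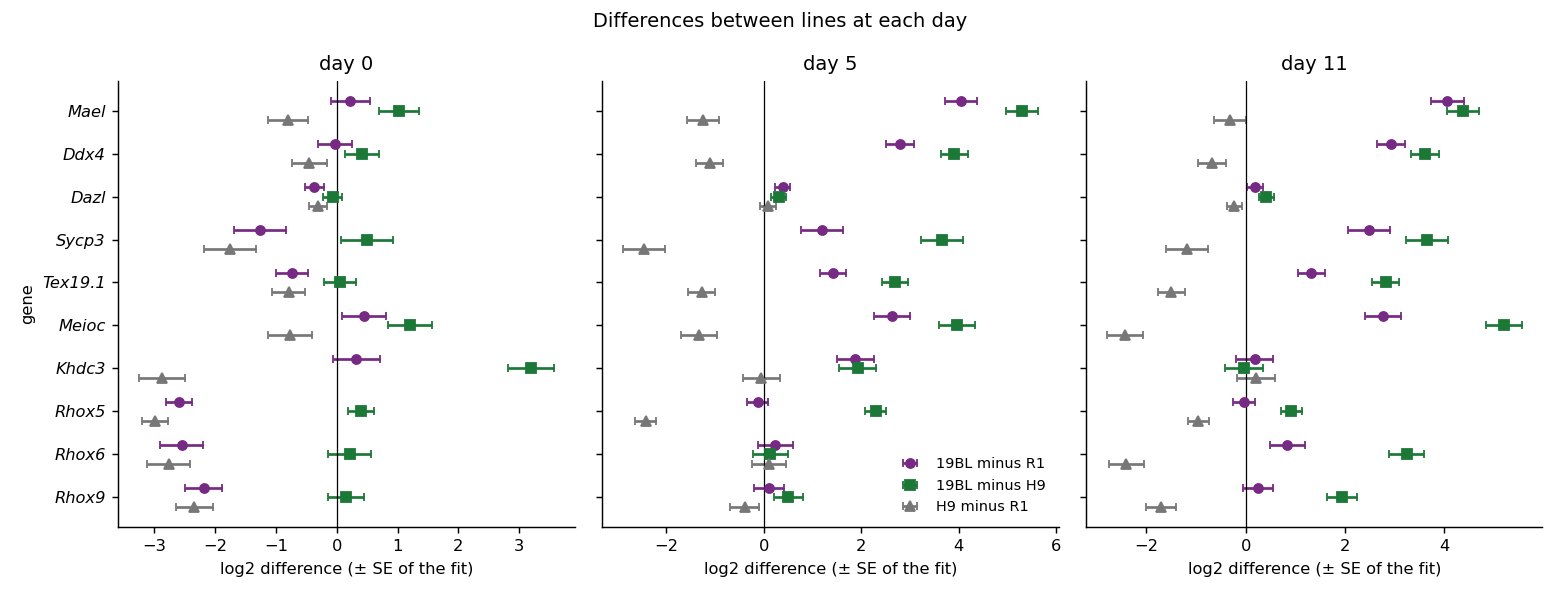
Difference of group means between lines on the log2 scale (horizontal axis) for each of the 10 genes (vertical axis) at days 0, 5 and 11, with bars of 1 SE. For 19BL minus R1, Mael moved from 0.23 at day 0 to 4.04 at day 5 and 4.07 at day 11, while Rhox5 moved from -2.59 to -0.13 and -0.03.

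Pluripotency genes differed in the same direction. At day 11, 10 of 14 were higher in 19BL than in R1 (2.39% of all genes) and 10 higher than in H9 (5.12%). Zfp42 (3.74 and 5.40) and Pou5f1 (2.56 and 2.59) were among them. Within 19BL all 14 fell from day 0 to day 11, with Nanog at -4.21 ± 0.48 and Pou5f1 at -2.81 ± 0.52. The smallest falls of the 14 were those of Dppa5a, from 15.30 to 13.55, and Esrrb, from 9.52 to 7.74. Among the members, Mael differed by -0.64, Ddx4 by -1.62, Sycp3 by -1.72 and Tex19.1 by -1.83, and Khdc3 went from 9.73 to 5.99. With the RNA quality index as a covariate, the 19BL differences from day 0 to day 11 were -2.48 for Mael, -3.16 for Ddx4 (from -1.62), -4.91 for Sycp3 (from -1.72) and -2.77 for Tex19.1 (from -1.83). With it, 3 members instead of 5 stayed called against R1 at day 11: Mael at 3.07, Ddx4 at 2.10 and Meioc at 2.52. Sycp3 and Tex19.1 came to 0.75 and 0.82, and Rhox6 and Rhox9, called in neither, to -0.16 and -0.37. Against H9, 4 instead of 7 stayed called, and the members whose change differed from that of R1 went from 8 to 3. The index was highest in 19BL at day 11, so it moved with the group, and its part and that of remaining pluripotent cells in the member values were not tested.

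Genes of other cell types were read beside these values. The mean level of 10 trophoblast genes went from 6.03 at day 0 to 7.69 at day 5 and 6.93 at day 11 in R1, from 6.24 to 7.93 and 6.65 in H9, and from 5.91 to 6.91 and 7.04 in 19BL. In 19BL at day 5 replicate 3 stood at 7.82 and the mean was 6.46 without it. Genes of the trophoblast list took unlike courses. Group means of Elf5 (4.29 to 4.56) and Tpbpa (3.76 to 4.31) stayed low throughout. In R1 at days 0, 5 and 11, Cdx2 stood at 7.45, 10.18 and 7.79, and Plac1 at 5.75, 10.86 and 10.99. Whether trophoblast cells were present was not tested. The mean of 13 extraembryonic endoderm genes went from 6.80 to 9.35 in R1, from 7.01 to 9.18 in H9 and from 7.43 to 9.21 in 19BL between days 0 and 11. Among embryoid bodies, Rhox5, Rhox6 and Rhox9 were highest at day 11 in each line, as were the means of the endoderm and the fibroblast genes. In R1 at day 0 the endoderm mean was the lowest of all groups, while Rhox5 stood at 13.81, Rhox6 at 9.31 and Rhox9 at 8.86. A link of the Rhox genes to either cell type was not tested. For somatic cells of the gonad, the mean of 10 genes lay between 6.18 and 6.77 in all groups. Nr5a1 from that list lay between 5.98 and 6.15. Whether such cells were present was not tested. Single genes of the list moved in opposite directions between days 0 and 11. Wt1 went from 5.89 to 8.51 in R1, from 6.04 to 8.64 in H9 and from 5.81 to 6.93 in 19BL, and Dmrt1 from 9.30 to 5.74, from 7.98 to 4.97 and from 10.28 to 7.45. Dmrt1 thus fell in each line, as the member Ddx4 did. Gata4, also an endoderm gene, stood at 5.31 in H9 at day 0 and 9.16 at day 5.

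H9 also differed from R1 in several members. At day 0, 5 members were called lower in H9, where 0.879% of all genes were called lower. These were Rhox5 at -2.99 ± 0.21 (7.97-fold), Khdc3 at -2.87 ± 0.38, Rhox6 at -2.76 ± 0.36, Rhox9 at -2.34 ± 0.30 and Sycp3 at -1.76 ± 0.43. The H9 arrays lay below all R1 arrays for each of them. The first 4 stayed called in every alternative run. Sycp3 was not called without R1 replicate 2 or 3 or H9 replicate 1 or 3, nor with the RNA quality covariate (-0.93). Mael, Ddx4, Dazl, Tex19.1 and Meioc were all at lower means in H9, at differences of -0.31 to -0.80, and none was called. Feeder-type fibroblast genes moved with this comparison: 4 of 12 were higher in H9 (2.21% of all genes) and 0 lower. Their array means were 8.98 to 9.84 in R1 and 10.49 to 11.31 in H9. The RNA quality index was 1.45 ± 0.26 (SD, n = 3) in R1 and 1.09 ± 0.07 in H9. The part of the fibroblast genes in the member values was not tested.

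At day 5, 3 members were lower in H9 than in R1, where 0.154% of all genes were called lower. Rhox5 was at -2.42 ± 0.21, Sycp3 at -2.47 ± 0.43 and Tex19.1 at -1.28 ± 0.27. Tex19.1 lost its call without R1 replicate 1 or 2 or H9 replicate 2 or 3, and with the RNA quality covariate only Rhox5 was left. Without R1 day 5 replicate 3 the count was 5, with Mael at -1.64 and Ddx4 at -1.47. At day 11, 4 were lower (0.786% of all genes): Meioc at -2.44 ± 0.36, Rhox6 at -2.40 ± 0.36, Rhox9 at -1.70 ± 0.30 and Tex19.1 at -1.50 ± 0.27. All 4 calls rested on the spread shared by the 9 groups: with only the 6 arrays compared none was called. With the replicate number as a block and only those arrays, Meioc alone was called. Rhox5 was at -0.95, just under 2-fold.

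Set side by side, the changes from day 0 to day 11 in H9 and R1 lay apart for 2 members, both with the higher value in H9, where 0.275% of all genes were called in that direction. Khdc3 changed by -3.59 in R1 and -0.52 in H9, a difference of 3.08 ± 0.54, and Rhox5 by -1.79 and 0.25, a difference of 2.04 ± 0.30. Khdc3 stood at 9.41 in R1 and 6.54 in H9 at day 0 and at 5.81 and 6.02 at day 11. Rhox5 stood at 13.81 and 10.82 at day 0 and at 12.03 and 11.07 at day 11, so it was lower in H9 at both days. The count was 4 without H9 day 11 replicate 3, with Meioc (-1.87) and Rhox9 (1.18) added.

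Other genes of the germ line were taken from lists of 89, of which 71 were measured. In R1, 22 of the 71 fell by day 5 and 1 rose, and 27 fell and 1 rose by day 11. In H9 the counts were 14 and 1 at day 5 and 26 and 1 at day 11, and in 19BL 18 and 0 at day 5 and 22 and 3 at day 11. The shares of all genes were those given above, with 6.62% called higher in R1 at day 5, 11.4% at day 11, and 5.04% and 7.55% in H9. The median change of the 71 at day 11 was -0.48 in R1, -0.20 in H9 and -0.30 in 19BL, so most listed genes moved little. Of 18 other piRNA genes, 7 fell and 1 rose in R1 by day 11. Tdrd12, which takes part in making piRNAs, fell (-5.75 ± 0.39), as did Rnf17 (-4.70 ± 0.25), a Tudor domain gene of the male germ line, and Gtsf1 (-3.00). Tdrd7, which is also used in the lens, rose (3.55 ± 0.28). In 19BL Tdrd12 (-3.62), Gtsf1 (-2.43), Ddx25 (-2.29) and Piwil2 (-2.21), a PIWI protein gene, fell by day 11.

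Of 28 other meiosis genes, 10 fell and 0 rose in R1 by day 11, 9 and 0 in H9, and 6 and 2 in 19BL. Of all genes, 12.2%, 16.0% and 14.1% were called lower in R1, H9 and 19BL, and 6.72% higher in 19BL. Mei4, needed for meiotic DNA breaks, fell, with changes of -4.76 ± 0.36 in R1, -3.92 in H9 and -2.80 in 19BL. Syce1, a component of the central element of the synaptonemal complex, fell, with changes of -3.24, -3.24 and -2.79. Hormad1, a protein of unpaired chromosome axes, fell, with changes of -3.35 in R1 and -3.15 in H9. Of 16 oocyte genes 3 fell in each line by day 11, a count not far from those shares of all genes. The oocyte gene Ooep, a partner of Khdc3 in the maternal complex of the egg, fell, with changes of -4.37 ± 0.29 in R1, -3.96 in H9 and -1.57 in 19BL. Zp3, a zona pellucida gene, fell, with changes of -2.96, -2.44 and -1.84, and Sohlh2, with changes of -2.23, -1.79 and -1.84. Rhox13, the only other Rhox gene measured, fell, with changes of -3.32, -2.24 and -1.84. In R1 it did not come back by day 11 as Rhox6 and Rhox9 did. In H9 and 19BL it differed by 0.25 and 0.06 from day 5 to day 11. Rhox6 and Rhox9 rose there between those days, from levels already low at day 0.

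Primordial germ cell genes moved in both directions between 19BL and the other lines. Of the 8 measured, 6 fell in R1, 7 in H9 and 6 in 19BL by day 11, with 0 rising. The shares of all genes called lower were 12.2%, 16.0% and 14.1%. At day 11, 2 of the 8, Tfap2c (1.45 ± 0.31) and Sall4 (1.25), were higher in 19BL than in R1, and 2, Ifitm3 (-2.11 ± 0.38) and Dppa3 (-1.22), were lower. Tfap2c, Prdm14 and Sall4 were higher than in H9 and Ifitm3 lower. Sall4, Prdm14 and Tfap2c are also used by pluripotent cells.

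Between lines at day 11, 14 of the 71 were higher in 19BL than in R1 and 3 lower, and 18 higher and 1 lower than in H9. Of all genes, 2.39% and 5.12% were called higher in these comparisons, and 5.92% and 4.91% lower. Rnf17 was higher by 2.36 ± 0.25 and 3.92 ± 0.25, and its 19BL arrays of day 11 (7.91 to 8.51) lay above R1 (5.61 to 6.30) and H9 (4.09 to 4.44). Ooep was higher by 2.47 ± 0.29 and 2.91, with 8.62 to 9.86 in 19BL against 6.28 to 7.26 in the other lines, while Khdc3 no longer differed by 2-fold. The meiosis genes Tex15 (2.13 ± 0.28 and 3.38), which takes part in transposon silencing and recombination, Stra8 (2.30 ± 0.30 and 2.57), the retinoic acid target that opens meiosis, and Stk31 (1.36 and 1.64) were also higher. With the RNA quality covariate, 8 instead of 17 of the listed genes were called against R1 and 8 instead of 19 against H9. At day 5, 10 were higher and 2 lower than in R1 (2.31% and 3.14% of all genes). Against H9, 16 were higher and 1 lower at day 5 (2.91% and 4.57%).

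Stra8 and Tex15 had courses of their own. The lists were chosen with earlier results of these data known, so the p-values here and below are a description and not independent tests. Stra8 stood at 9.42 ± 0.67 (SD, n = 3) in 19BL at day 0, 7.02 ± 0.19 at day 5 and 8.94 ± 0.54 at day 11, while R1 and H9 stayed between 6.10 and 7.48 at all days. At day 0 it was higher in 19BL than in R1 by 2.42 ± 0.30 (limma adjusted p = 2.7e-05) and than in H9 by 3.05 (adjusted p = 1.2e-06). Tex15 went from 7.63 to 8.35 and 8.64 in 19BL and from 7.24 to 6.43 and 5.25 in H9. In H9 against R1, Rnf17 was lower at all 3 days, at -1.45, -1.55 and -1.56 ± 0.25 (adjusted p = 0.0012, 0.0018 and 0.00083). Stag3, a meiotic cohesin gene, was lower, at -1.68, -1.79 and -1.01 ± 0.25 (adjusted p = 0.00031, 0.00041 and 0.035). Listed genes called in H9 against R1 at day 0 were 1 higher (2.21% of all genes) and 6 lower. Their total of 7 was 3 without R1 day 0 replicate 2 or H9 day 0 replicate 3. At day 11, 4 were called lower, 2 without R1 replicate 1 or 2, 1 without H9 replicate 1, and 0 with only the arrays compared.

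Between 19BL and R1, the difference in change from day 0 to day 11 was called for 13 listed genes with the higher value in 19BL. It was called for 2 with the lower value. Of all genes, 2.47% were called higher and 7.03% lower. Rnf17 differed by 2.91 ± 0.35 (limma adjusted p = 1.6e-05), Ooep by 2.80 ± 0.41 and Tdrd12 by 2.12. With the RNA quality covariate, Tdrd12 (0.91) was no longer called. Against H9, 9 were higher and 4 lower (3.41% and 3.01% of all genes), 8 in all without 19BL day 11 replicate 1. Rnf17 (3.02), Tex15 (2.99) and Ooep (2.38) were the widest among the piRNA, meiosis and oocyte lists there.

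**Figure D4:**
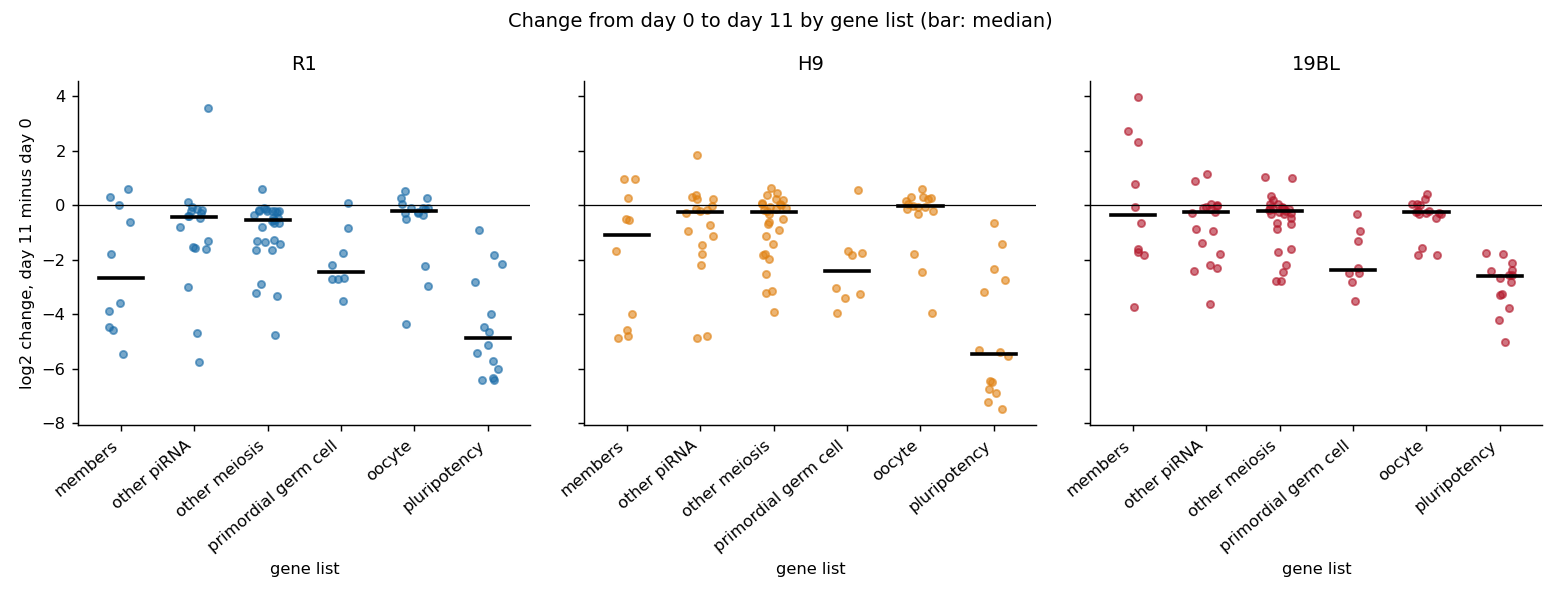
Difference from day 0 to day 11 on the log2 scale (vertical axis) for each gene of 6 lists (horizontal axis) in R1, H9 and 19BL, with a bar at the median of each list. The 10 members have medians of -2.69, -1.11 and -0.35, and the 14 pluripotency genes -4.88, -5.46 and -2.62.

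Among themselves the members formed a few patterns over the 9 group means, given as a description since the groups share lines and days. Mael and Ddx4 had a Pearson r of 0.97, Ddx4 and Sycp3 0.96, and Sycp3 and Tex19.1 0.96, while Rhox6 and Rhox9 had 0.99 and Mael and Rhox6 0.09. Among 3010 other genes whose group means spanned at least 2 log2 units, those most like each member over the 9 means were Depdc7 (0.967) and Svip (0.965) for Mael, and Zfp936 (0.996) and the pluripotency gene Zfp42 (0.989) for Ddx4. For Sycp3 they were Rnf17 and Ccnb1ip1 (0.989 each), both germ line genes, and for Tex19.1 Mageb16 (0.996) and Morc1 (0.992), a transposon silencing gene of the male germ line. Khdc3 was most like Clgn (0.971), a testis chaperone gene, and Itpka (0.958), and Dazl like Fancl (0.957) and Alg13 (0.950). The Dazl probe set used had group means of only 5.23 to 6.08, so its likeness rests on a narrow span. Lower values of r were found for Meioc, with Amn at 0.929 and Rev1 at 0.926, and for Rhox5, with Sat1 at 0.873 and ND5 at 0.843. Rhox6 and Rhox9 shared Ccser1 as the closest gene, at 0.944 and 0.928, before Atg4a (0.879) and Zfp945 (0.865).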

How the data were processed

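Total RNA of 27 samples was hybridized to Affymetrix arrays. The authors deposited log2 values made with robust multi-array averaging (RMA), per the submitters' processing notes, and its version and settings are not given in the sources used here. RMA scales all arrays to a like distribution, so a general shift in expression would not be seen. The values ran from 3.00 to 15.67 and array medians from 5.91 to 6.10. Depth has no meaning for arrays, and the number of arrays limits the precision.

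Of 45101 probe sets, 64 were controls, 34945 had 1 gene symbol, 932 several and 9160 none; 34741 were matched to RefSeq genes. The brightest probe set stood for each of 18193 genes. limma 3.58.1 in R 4.3.3 fitted 1 mean per group with eBayes to all arrays, and p-values were adjusted by Benjamini-Hochberg over all genes of a comparison. Figures and tables were made with Python 3.11.15. Sequences and coordinates are RefSeq's, on GRCm38.p6. Up to 4 called genes with the largest change were named per list, and the 2 most like genes per member. The members and the lists were chosen with earlier results of these data known. A test of the members in H9 against R1 had been planned, and since changes with day and line had chosen them, no p-value of a member is given.

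Same-numbered replicates correlated above 0.1 in all 3 pairs in 3 of 18 comparisons of groups: 19BL day 11 against day 5 (0.13, 0.10, 0.15), 19BL against R1 at day 0 (0.48, 0.25, 0.33) and H9 against R1 at day 11 (0.12, 0.49, 0.39). No pairing is stated in the labels; in these 3 the numbers were taken as pairs from the data, and the value with a replicate block is given where it changes a call. Further alternatives were median centring, quantile normalization, leaving out dim genes (14702 were kept, with 3 or more arrays above 5.37, the 40th percentile of all values), averaging the probe sets of each gene, testing every probe set, only the arrays compared, a variance trend with robust fitting, no fold limit, the RNA quality index as a covariate and each array left out. Cyclic loess and the block with only the arrays compared were chosen after seeing the data. As a check on simulated data, 50 of 18193 genes were changed by each of 1, 1.5, 2 and 3 (log2). Of these, 26, 47, 49 and 50 were recovered for H9 against R1 at day 5, with 3 unchanged genes called. For the difference in change of 19BL and R1 the numbers were 17, 35, 46 and 50, with 9.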

Additional observations from a re-analysis of the deposited data

Results flagged for a closer look

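The change from day 0 to day 11 differed between lines, by the test of the difference itself, for listed genes that are not members. They are from the lists of germ line genes and of repressors of the germ line set. The lists were chosen with earlier results known. Between H9 and R1, limma called the difference for Tdrd7 (-1.70, adjusted p = 0.028) and Tex15 (-1.52, adjusted p = 0.047), with the lower value in H9. Both were also called with the RNA quality index as a covariate.

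Between 19BL and R1 the difference was called for 11 of the genes named here, with adjusted p up to 0.020. It was higher in 19BL for Rnf17 (2.91), Ooep (2.80), Tfap2c (2.37), Tdrd12 (2.12), Mei4 (1.96), Hormad1 (1.64), Rhox13 (1.48), Tex15 (1.47) and Stag3 (1.27), and lower for Ifitm3 (-2.68) and Tdrd7 (-2.40). With the covariate 2 of the 11 were called, Rnf17 (2.76) and Ooep (2.07). Lost calls did not always go with a smaller difference: Tex15 was at 1.95, Tdrd7 at -2.01 and Hormad1 at 1.52. Mei4 (0.54) and Tdrd12 (0.91) came to less than 1.

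Between 19BL and H9 it was called for 10, with adjusted p up to 0.048. It was higher in 19BL for Rnf17 (3.02), Tex15 (2.99), Tfap2c (2.71), Ooep (2.38), Dnmt3l (1.90), Dnmt3b (1.54), Sall4 (1.46), Hormad1 (1.44) and Hells (1.44), and lower for Ifitm3 (-1.78). Dnmt3l, Dnmt3b and Hells among these are from the list of repressors. With the covariate 2 of the 10 were called, Rnf17 (2.86) and Tex15 (3.50). Sall4 (1.51) and Dnmt3l (1.88) were not called at differences near those without it, and Ifitm3 (-0.77) differed by less. The index was highest in 19BL at day 11 and its part was not tested. Each line was 1 cell line, so a difference between the lines and one between embryonic and reprogrammed cells cannot be told apart.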

How the results depend on the processing

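No member value changed direction where it was called with or without the alternative. Of 210 member values, 32 that were called in neither changed sign in an alternative, the largest from 0.84 to -0.16 (Rhox6 in 19BL against R1 at day 11, RNA quality covariate), and 30 changed their call in one other than a left-out array, the fold limit and the RNA quality covariate, 27 with a single array left out and 30 with that covariate. With the covariate the counts of members called were 1 for H9 against R1 at day 5, 3 and 4 for 19BL against R1 and H9 at day 11, and 3 and 5 for the differences in change of 19BL against R1 and H9. The other germ line genes were then 4 and 2 for H9 against R1 at days 0 and 11, 8 and 8 for 19BL against R1 and H9 at day 11, and 2 and 4 for the differences in change. With only the arrays compared, members called were 2 for H9 day 11 against day 5, 3 for 19BL against H9 at day 0 and 0 for H9 against R1 at day 11, and other genes 0 there and 11 for 19BL against H9 at day 11. The replicate block gave 2 members for 19BL against H9 at day 0. With the block and only the arrays compared, members were 3 there and 1 each for H9 against R1 at days 5 and 11, and other genes 0 for H9 against R1 at day 11 and 9 for the difference in change of 19BL against R1. Without a fold limit, 8 members were called in H9 at day 11, and the other genes were 27 in H9 at day 5, 12 for H9 against R1 at day 0, 23 and 27 for 19BL against R1 and H9 at day 5 and 31 against H9 at day 11. Leaving out dim genes gave 2 members for 19BL against H9 at day 0. The mean of probe sets gave 1 and 2 other genes for H9 against R1 at days 5 and 11, and quantile normalization 2 at day 11. With single arrays left out, H9 against R1 gave 3 to 9 other genes at day 0, 2 to 5 members at day 5 and 1 to 5 other genes at day 11. The differences in change gave 2 to 4 members for H9 against R1 and 8 to 14 other genes for 19BL against H9. Single arrays also ended calls of Meioc (R1 day 0 replicate 2 or day 5 replicate 3, at -1.02 and -0.95 from day 0 to day 5) and, from day 5 to day 11, of Ddx4 in R1 (-0.89 without day 5 replicate 1) and of Sycp3 in H9 and 19BL (-1.06 and -0.87 at the least). Median centring moved the median of all genes by -0.12 to 0.06, quantile normalization by -0.04 to 0.18 and cyclic loess by -0.07 to 0.19. The other member calls that the replicate block changed are among the 30 given first.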

Other observations

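Of 20 measured genes for repressors of the germ line set, 9 fell and 1 rose by day 11 in each of R1, H9 and 19BL. Of all genes, 12.2%, 16.0% and 14.1% were called lower. Dnmt3l, the cofactor of the de novo DNA methyltransferases, fell, with changes of -5.73 ± 0.43 in R1, -6.38 in H9 and -4.49 in 19BL, and Dnmt3b, one of these enzymes, with changes of -4.17 ± 0.33, -4.51 and -2.97. L3mbtl2, of a Polycomb complex at germ line promoters, fell, with changes of -2.58, -3.04 and -2.42. At day 11, limma called 0 of the 20 in 19BL against R1 and 2 higher against H9, the chromatin remodelling gene Hells at 1.56 ± 0.25 and Mga at 1.16 ± 0.27. The counts describe a list and no link to the members was tested.

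Some Y-linked genes stood lower in 19BL, already at day 0. At that day Eif2s3y differed by -2.81 against R1 and -2.04 against H9, and Uty by -2.20 and -1.96. All of these passed the threshold. Uty stood at 4.40 ± 0.58 (SD, n = 3) at day 5 and 4.27 ± 0.53 at day 11 in 19BL, against 7.27 ± 0.95 to 7.98 ± 0.07 in the R1 and H9 embryoid bodies, and Eif2s3y arrays at 5.22 to 8.03 and 5.78 to 8.63 against 9.16 to 10.90. Xist was at 7.43 ± 0.71 in 19BL at day 11, against 5.78 ± 0.09 in R1 and 5.91 ± 0.52 in H9. At day 0 it had stood at 8.27 in 19BL, 8.04 in R1 and 7.76 in H9. Kdm5d lay between 4.32 and 4.71 in all groups, under the limit of 5.37 used for dim genes, so its probe set says little about the lines. In limma, at both days and against both lines, the differences of Uty (-3.58 to -3.00, adjusted p at most 4.54e-06) and of Eif2s3y (-4.32 to -2.98, at most 0.000403) passed the threshold. Xist passed it at day 11 against both (1.65 and 1.52) and at day 5 against H9 (1.08), but not at day 5 against R1 (0.49, adjusted p = 0.369).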
